A study of Homo sapiens with 36 samples.

Results

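The genes described here are 10 classic readouts of the epithelial-mesenchymal transition (EMT): the transcription factor genes SNAI1, SNAI2, ZEB1, ZEB2, TWIST1 and TWIST2 and the marker genes CDH1, CDH2, VIM and FN1. They were taken by symbol from the deposited gene table, where all 10 were found among 26475 symbols. RNA of 3 human cancer cell lines was measured by poly-A RNA sequencing in 36 libraries, 3 for each of 12 groups. The lines were MDA-MB-468, from a basal-like breast cancer, WiDr, from a colorectal adenocarcinoma, and PANC-1, from a carcinoma of the pancreas. In the hairpin experiments, each line carried a lentiviral pGIPZ vector. It expressed a hairpin that silences no gene (non-silencing, the control) or 1 of 2 hairpins, called hairpin 1 and hairpin 2, that address the same gene. In a further WiDr experiment, cells carried a non-targeting CRISPR guide RNA (the control) or 1 of 2 guides against that gene. All cells were grown in DMEM with serum and antibiotics, and all controls were also transduced with a vector. Whether cells were pools or clones was not stated in the labels used. The PANC-1 libraries of hairpin 2 are named by their label, and a check of that label is not reported here. Replicates are biological per the series' design text, but separate cultures are not described, so p-values measure the spread between these libraries.

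In the EMT, epithelial cells give up cell-cell junctions and take on a motile, matrix-producing state. The zinc finger proteins of the SNAIL family (SNAI1, SNAI2) and of the ZEB family (ZEB1, ZEB2) repress epithelial genes by binding E-box sequences, and CDH1 is their best known target. TWIST1 and TWIST2 are basic helix-loop-helix factors that bind E-boxes as dimers with E proteins. CDH1 encodes E-cadherin, the cadherin of epithelial adherens junctions, and CDH2 encodes N-cadherin, which replaces it in many mesenchymal cells. VIM encodes vimentin, the intermediate filament protein of mesenchymal cells, and FN1 encodes fibronectin, a matrix glycoprotein.

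Promoter sequences are shown for CDH2 and TWIST2, which fell with both hairpins in PANC-1, and for VIM, which rose. ZEB1 is shown because it holds the binding motif of its own family. Each runs 5′ to 3′ on the gene's strand, from 250 bases before to 50 bases from the start, and comes from RefSeq (GRCh38.p14). Capitals mark the E-box CANNTG, which reads the same on both strands. For a gene with several starts, the entry nearest to its GENCODE start was taken.
CDH2, chr18:28177081-28177380, minus strand: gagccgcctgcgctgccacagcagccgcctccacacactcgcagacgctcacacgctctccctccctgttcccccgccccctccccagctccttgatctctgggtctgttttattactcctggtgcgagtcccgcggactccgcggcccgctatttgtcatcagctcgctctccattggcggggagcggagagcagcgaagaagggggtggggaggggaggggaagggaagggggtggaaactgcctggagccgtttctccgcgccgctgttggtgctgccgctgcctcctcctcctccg
TWIST2, chr2:238847835-238848134, plus strand: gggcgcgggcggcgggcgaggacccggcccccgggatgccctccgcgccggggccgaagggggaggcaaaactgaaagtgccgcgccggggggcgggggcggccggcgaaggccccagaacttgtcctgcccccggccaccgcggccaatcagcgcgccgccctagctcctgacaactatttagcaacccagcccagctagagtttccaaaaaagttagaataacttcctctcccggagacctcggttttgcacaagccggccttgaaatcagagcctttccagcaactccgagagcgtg
VIM, chr10:17227991-17228290, plus strand: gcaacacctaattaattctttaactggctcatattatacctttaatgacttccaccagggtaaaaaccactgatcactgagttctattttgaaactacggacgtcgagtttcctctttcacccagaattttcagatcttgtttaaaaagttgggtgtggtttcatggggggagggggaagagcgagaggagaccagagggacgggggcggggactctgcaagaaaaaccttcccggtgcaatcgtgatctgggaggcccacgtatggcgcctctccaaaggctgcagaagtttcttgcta
ZEB1, chr10:31318167-31318466, plus strand: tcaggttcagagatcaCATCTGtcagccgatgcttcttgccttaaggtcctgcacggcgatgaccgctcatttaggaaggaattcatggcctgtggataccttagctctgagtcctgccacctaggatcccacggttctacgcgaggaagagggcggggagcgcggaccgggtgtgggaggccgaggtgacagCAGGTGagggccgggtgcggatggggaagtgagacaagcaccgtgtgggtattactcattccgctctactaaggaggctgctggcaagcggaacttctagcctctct
The windows of CDH2, TWIST2 and VIM hold no CANNTG. The ZEB1 window holds 2, of which CAGGTG, at base -57 from the start, is the form preferred by SNAIL and ZEB proteins. Of 35116 promoters of the same length, 68.7% held CANNTG and 20.6% held CAGGTG or its reverse complement CACCTG, which is itself a CANNTG. Entries were found for 6 of the 10 genes, and SNAI1 and CDH1 were among those without. Of the other two with an entry, ZEB2 had 1 CANNTG and FN1 had 0. A match is a description of the letters, not a measured binding site.

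Libraries held 28371127 to 49237322 expected counts, and their number limits the precision of low genes. Levels are CPM (counts scaled to library size), adjusted by the trimmed mean of M-values (TMM) within each experiment, as mean ± SD of 3 libraries. Cell line markers went with the labels: 6 basal breast markers summed to 3792 to 5883 CPM in MDA-MB-468 libraries and to 40.4 to 195 CPM elsewhere. Of these, PANC-1 had 1 at 1 CPM or more in each group and WiDr 3. The sum of 6 intestinal markers was 363 to 872 CPM in WiDr, 9.31 to 15.9 CPM in PANC-1 and at most 1.05 CPM in MDA-MB-468. Of 6 fibroblast markers, DCN, LUM and COL1A2 were at 0 in the MDA-MB-468 control and PDGFRA, DCN and COL1A2 in the WiDr hairpin control. The list was not absent there: 1 of the 6 was at 1 CPM or more in the MDA-MB-468 control and 2 in the WiDr hairpin control. The sum of the 6 reached 11.8 CPM and 4.57 CPM in these controls, against 21.1 CPM in the PANC-1 control. No list of pancreatic markers was read, so PANC-1 was checked only for the absence of the other lines' markers. In this bulk RNA, fewer cells that express a gene and less of its RNA per cell cannot be told apart.

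**Figure D1:**
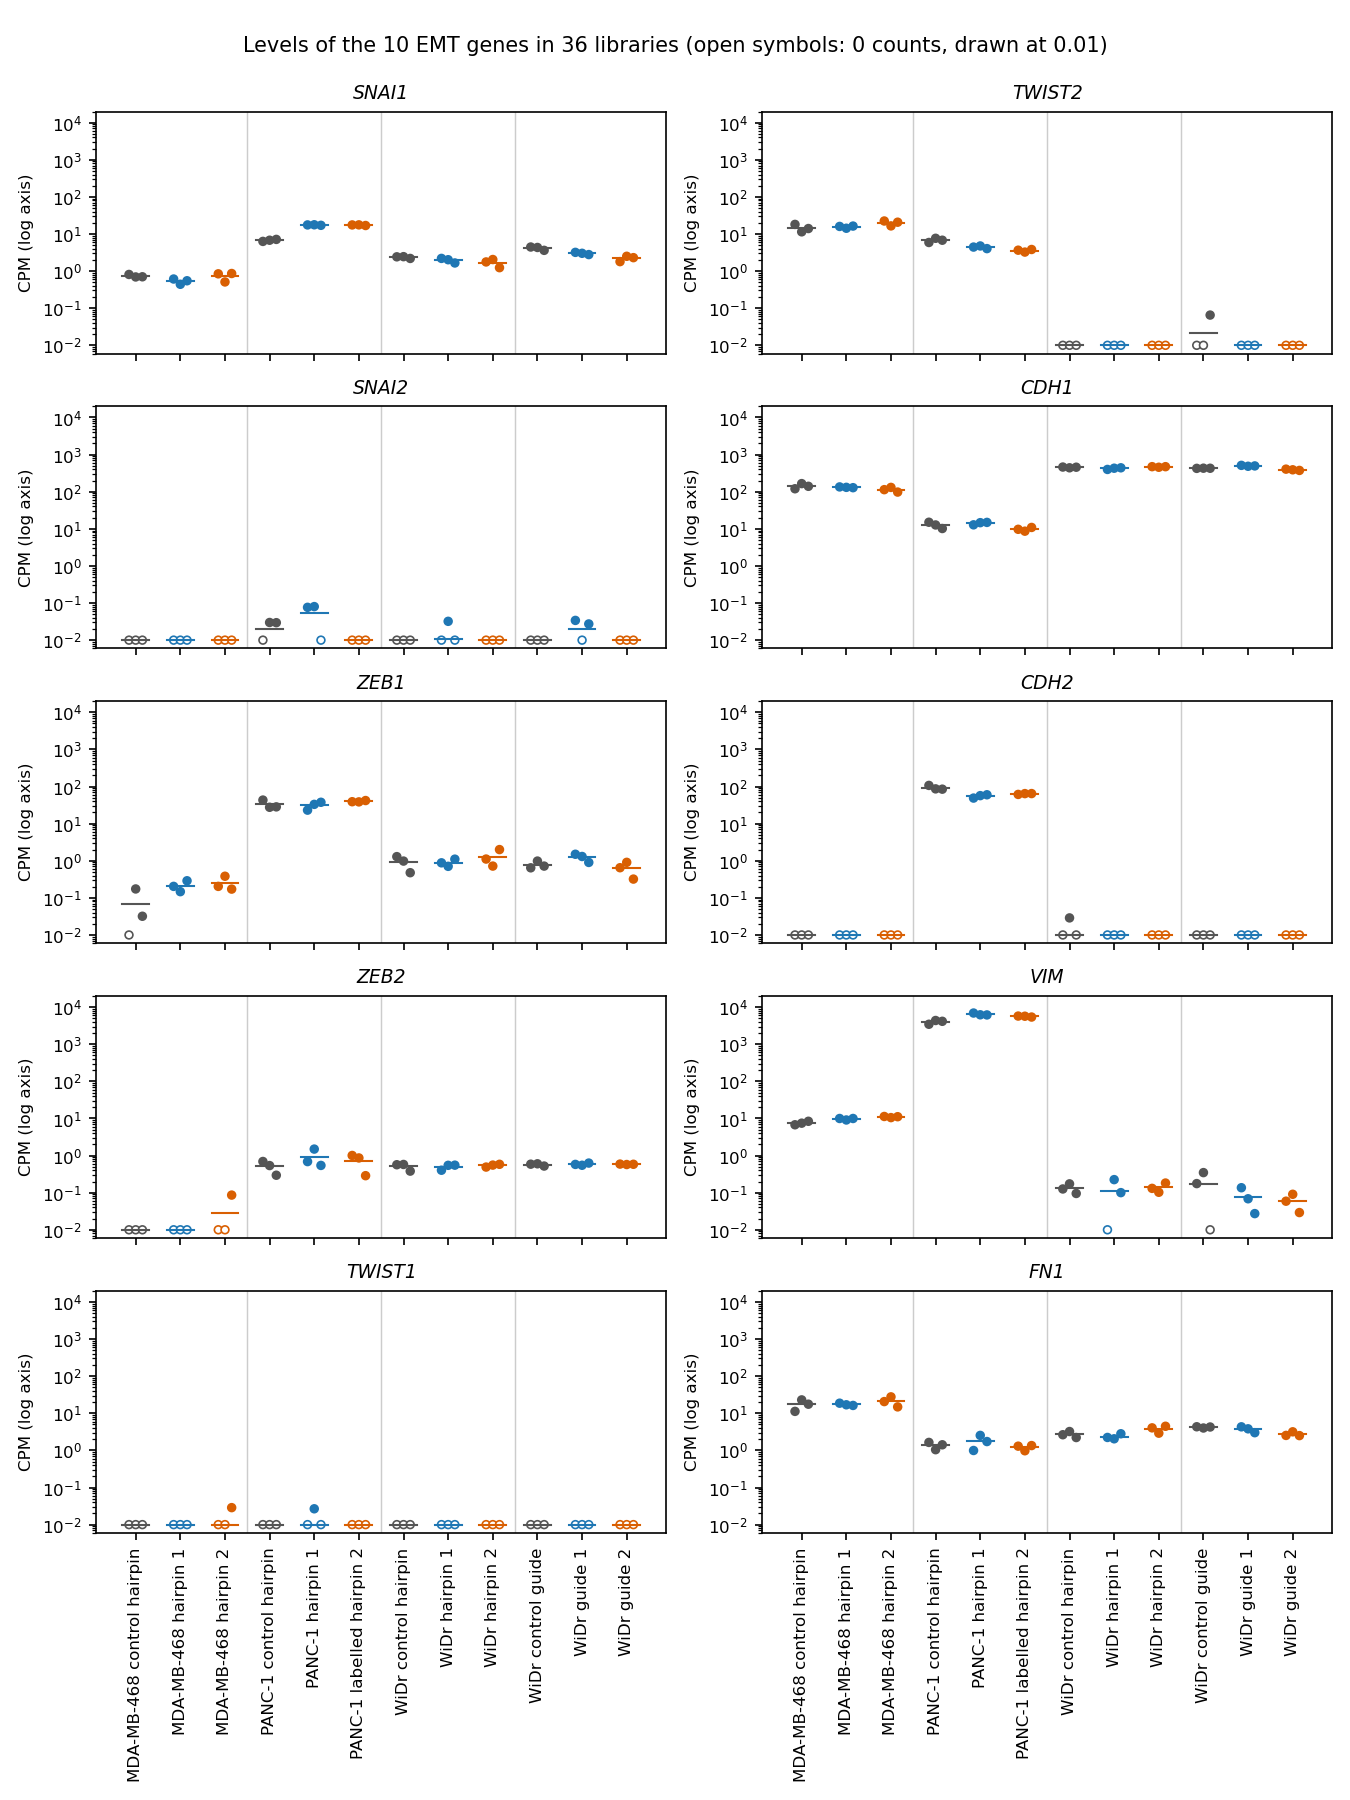
Level of each of the 10 genes in all 36 libraries, in CPM on a log axis. Points are libraries, lines are group means (n = 3), grey marks controls, blue construct 1 and orange construct 2, and open symbols at 0.01 mark libraries with 0 counts. CDH2 and high VIM stand in the 9 PANC-1 libraries, and CDH1 is highest in the 18 WiDr libraries, at 375 to 513 CPM.

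The 3 lines held different sets of these genes. Of the transcription factor genes, SNAI1 (chromosome 20, 49982999 to 49988886, GRCh38, plus strand) was detected in all 36 libraries. It had 22 to 27 counts in the MDA-MB-468 control, 227 to 246 in PANC-1 and 69 to 85 in the WiDr hairpin control. Its level was 0.736 ± 0.0652 CPM in MDA-MB-468, 2.36 ± 0.142 in WiDr and 6.75 ± 0.418 in PANC-1. The 3 sets of libraries did not overlap. SNAI2, the other SNAIL family gene, had 0 counts in 29 libraries and at most 3 counts in the other 7. A count of 0 allows up to 3 counts in a library, which is 0.0910 CPM in the MDA-MB-468 control.

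ZEB1 (chromosome 10, 31318495 to 31529814, plus strand) was a PANC-1 gene among these lines, with 43.2, 27.6 and 28.3 CPM in the 3 PANC-1 control libraries. Control replicate 1 stood above the other two. The WiDr hairpin control had 1.29, 0.980 and 0.477 CPM, and the MDA-MB-468 control had 0, 6 and 1 counts. The antisense gene ZEB1-AS1 held more counts than ZEB1 in both lower lines, 36 to 66 in MDA-MB-468 and 145 to 363 in WiDr, and no source used here gives the strand setting of the counting. Reads of the pair may therefore not be told apart there, and low ZEB1 values are uncertain. ZEB2 (chromosome 2, 144364364 to 144524583, minus strand) had 10 to 56 counts in PANC-1 and 11 to 27 in WiDr. In MDA-MB-468, 8 of 9 libraries had 0 ZEB2 counts. TWIST1 (chromosome 7, 19020991 to 19117672, minus strand) had 0 counts in 34 of 36 libraries and 1 count in the others. TWIST2 (chromosome 2, 238848032 to 238910543, plus strand) was the TWIST gene in use: 18.1, 11.4 and 14.02 CPM in the MDA-MB-468 control and 5.90, 7.66 and 6.79 CPM in PANC-1, with 0 counts in 17 of 18 WiDr libraries.

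Of the marker genes, CDH1 (chromosome 16, 68737225 to 68835548, plus strand) lay at 462, 441 and 457 CPM in the WiDr hairpin control and at 120, 165 and 140 CPM in MDA-MB-468. In PANC-1 it was present but low, at 15.04, 12.7 and 10.2 CPM. CDH2 (chromosome 18, 27950966 to 28177446, minus strand) had the reverse pattern, with 107, 86.6 and 84.9 CPM in the PANC-1 control. It had 0 counts in all 9 MDA-MB-468 libraries and in 17 of 18 WiDr libraries, the other having 1. VIM (chromosome 10, 17228259 to 17237593, plus strand) reached 3459, 4372 and 4156 CPM in the PANC-1 control. It had 6.76, 7.47 and 8.40 CPM in MDA-MB-468 and 0 to 11 counts in WiDr libraries. Its antisense gene VIM-AS1 had 62 to 117 counts in PANC-1, beside at least 134779 for VIM. FN1 (chromosome 2, 215360440 to 215436172, minus strand) did not follow VIM: it was highest in MDA-MB-468, at 11.3, 23.0 and 17.6 CPM, and lowest in PANC-1, at 1.64, 1.05 and 1.42 CPM. WiDr lay between them, at 2.65, 3.23 and 2.22 CPM, and no library of these 3 control sets overlapped with another.

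Between lines, the 12 control libraries were fitted together with edgeR's quasi-likelihood test, with Benjamini-Hochberg adjustment over 16344 genes and a threshold of 0.05 on the adjusted p, here and in all counts below. In PANC-1 against MDA-MB-468, 5 of 8 tested members were higher and 3 lower, where 72.4% of all genes passed, 36.5% higher and 36% lower. In WiDr against MDA-MB-468, 4 were higher and 3 lower of 8, against 74.7% of all genes, 36.8% higher and 38% lower. In WiDr against PANC-1, 2 were higher and 5 lower of 8, against 75.1%, 36.5% higher and 38.6% lower. A passing call is thus common between these lines, and the sizes carry the description. VIM was higher in PANC-1 than in MDA-MB-468 by a log2 fold change of 9.07 (SE 0.294, adjusted p = 1e-10), and CDH1 was lower by -3.46 (SE 0.158). CDH1 was higher in WiDr than in PANC-1 by 5.22 (SE 0.170) and than in MDA-MB-468 by 1.76 (SE 0.145). ZEB1 was lower in WiDr than in PANC-1 by -5.11 (SE 0.373).

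Where a control was at 0, only a lower bound can be given, from 3 counts per library. CDH2 was at least 1022-fold higher in PANC-1 than in MDA-MB-468, and TWIST2 at least 158-fold higher in MDA-MB-468 and at least 73.7-fold higher in PANC-1 than in WiDr. ZEB2 was at least 5.59-fold higher in PANC-1 and in WiDr than in MDA-MB-468. SNAI1 was higher in PANC-1 than in MDA-MB-468 by 3.21 (SE 0.154) and lower in WiDr than in PANC-1 by -1.46 (SE 0.137). TWIST2 was lower in PANC-1 than in MDA-MB-468 by -1.07 (SE 0.235). FN1 was lower in PANC-1 than in MDA-MB-468 by -3.63 (SE 0.277) and higher in WiDr than in PANC-1 by 1.03 (SE 0.280). ZEB2 did not differ between WiDr and PANC-1 beyond its error, with an interval of -0.67 to 0.77 (2 SE either side). The labels do not say whether the lines were handled together, so a line and any difference in its handling cannot be told apart.

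Levels of different genes were compared per kilobase of the longest coding transcript (GENCODE 29). In the PANC-1 control, VIM led at 1872 CPM per kb, followed by CDH2 at 21.4, ZEB1 at 5.27, TWIST2 at 4.83, SNAI1 at 4.003 and CDH1 at 2.59. The MDA-MB-468 control had CDH1 first, at 28.99 CPM per kb, then TWIST2 at 10.3, VIM at 3.53, FN1 at 1.94 and SNAI1 at 0.437. In the WiDr hairpin control CDH1 stood at 92.8 CPM per kb, and the next was SNAI1 at 1.40. The epithelial regulators GRHL2 and ESRP1, from a list of 10 epithelial identity factors, were both lowest in PANC-1 among these controls, as CDH1 was. They were picked after their values were seen, and levels of the other factors are not given for these controls. In the PANC-1 experiment, 8 of the 10 factors had enough counts to be tested. GRHL2, a grainyhead factor, had 97.5 ± 20.8 CPM in MDA-MB-468, 95.8 ± 3.99 in WiDr and 0.0171 ± 0.0296 in PANC-1. ESRP1, an epithelial splicing factor, had 138 ± 9.73, 325 ± 11.6 and 0.842 ± 0.208 CPM.

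In PANC-1, the question was which of these genes differ with each hairpin from the non-silencing control. With hairpin 1, SNAI1 and VIM rose and CDH2 and TWIST2 fell, and the libraries labelled hairpin 2 had the same 4 calls. The mesenchymal marker VIM thus rose while the mesenchymal cadherin CDH2 fell, and CDH1 passed in neither comparison. With hairpin 1, 2 members rose and 2 fell of 8 tested, where 30.2% of all 15128 genes passed, 16.2% higher and 14% lower. With the label hairpin 2 the counts were also 2 and 2 of 8, against 33.4%, 16.7% in each direction. For both in the same direction it was 4 of 8 members, against 23.8% of genes, 12.7% higher and 11.1% lower.

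SNAI1 had 6.31, 6.79 and 7.15 CPM in the 3 control libraries, 17.6, 17.7 and 17.1 with hairpin 1 and 17.5, 17.6 and 16.9 in those labelled hairpin 2. All 6 hairpin libraries lay above all controls, and the 2 hairpin sets overlapped. The log2 fold changes were 1.37 (SE 0.0845, edgeR adjusted p = 7.96e-06) and 1.36 (SE 0.0845, adjusted p = 7.85e-06), or 2.59-fold and 2.57-fold. Leaving out any library in turn kept the hairpin 1 value within 1.31 to 1.40. The difference between the hairpins had an interval of -0.17 to 0.15.

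VIM had 3459, 4372 and 4156 CPM in the control, 6944, 6224 and 6173 with hairpin 1 and 5754, 5697 and 5413 in the libraries labelled hairpin 2. The 3 sets did not overlap. It rose by 0.69 (SE 0.116, edgeR adjusted p = 0.0021) and 0.49 (SE 0.115, adjusted p = 0.0108). The call of the label hairpin 2 was lost without its replicate 1 (0.46, adjusted p = 0.0575) or replicate 2 (0.47, adjusted p = 0.0519).

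CDH2 went the other way, from 107, 86.6 and 84.9 CPM to 48.9, 56.9 and 60.01 CPM with hairpin 1 and 61.3, 64.5 and 64.7 CPM in the libraries labelled hairpin 2. No hairpin library reached the lowest control. The log2 fold changes were -0.75 (SE 0.115, edgeR adjusted p = 0.0013) and -0.55 (SE 0.114, adjusted p = 0.00618). TWIST2 had 5.90, 7.66 and 6.79 CPM in the control, 4.44, 4.76 and 4.03 with hairpin 1 and 3.66, 3.25 and 3.82 in those labelled hairpin 2. Its sets did not overlap either, and it fell by -0.62 (SE 0.131, adjusted p = 0.00697) and -0.92 (SE 0.133, adjusted p = 0.000915). Leaving out any library kept the CDH2 and TWIST2 calls.

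ZEB1, ZEB2, CDH1 and FN1 did not pass in PANC-1. ZEB1 had 43.2, 27.6 and 28.3 CPM in the control, 23.1, 33.1 and 37.7 with hairpin 1 and 39.0, 38.6 and 42.0 in the libraries labelled hairpin 2. Its control replicate 1 lay above every hairpin library. In the libraries labelled hairpin 2 its value was 0.27 (SE 0.207, edgeR adjusted p = 0.338), and without control replicate 1 it was 0.49 with adjusted p = 0.0277. The same library was also the highest control for CDH2 and CDH1 and the lowest for VIM, SNAI1 and TWIST2. CDH1 had 12.8, 14.6 and 14.9 CPM with hairpin 1 and 9.70, 8.64 and 10.9 CPM in the libraries labelled hairpin 2, against 15.04, 12.7 and 10.2 in the control. The value labelled hairpin 2 was -0.38 (SE 0.152, adjusted p = 0.0841), and it passed without control replicate 3 (-0.53, adjusted p = 0.0279) and in a fit of all 36 libraries (-0.39, adjusted p = 0.00825). ZEB2, with 10 to 56 counts per library, had 0.82 (SE 0.536) with hairpin 1, an interval of -0.25 to 1.89. FN1, with 34 to 95 counts, had 0.35 (SE 0.324) with hairpin 1, an interval of -0.30 to 1.00.

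Between the 2 hairpin sets of PANC-1, no member passed of 8 tested by edgeR's quasi-likelihood test, with 1 at an unadjusted p under 0.05 and 0 by DESeq2, where 0.106% of all genes passed, 0.0264% higher and 0.0793% lower. That gene was CDH1, with -0.53 (SE 0.151) for the label hairpin 2 against hairpin 1 and no overlap between the sets. Other measures moved with the hairpins in PANC-1. The share of counts in 4 ribosomal RNA genes was 4.61% to 9.603% in the 3 control libraries and 0.838% to 2.60% in the other 6. With these genes left out of the fit, SNAI1 had 1.37 and 1.36, VIM 0.68 and 0.49, CDH2 -0.76 and -0.56 and TWIST2 -0.63 and -0.93, all past the threshold. The sum of 6 fibroblast markers was 11.3 to 21.1 CPM in the control, 40.6 to 46.0 with hairpin 1 and 17.1 to 20.2 in the libraries labelled hairpin 2. In the last set PDGFRA, DCN and COL1A2 were at 0, and 2 of the 6 markers were at 1 CPM or more, as in the control. The part of the fibroblast markers in these results was not tested, nor that of the ribosomal share beyond the fit above.

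**Figure D2:**
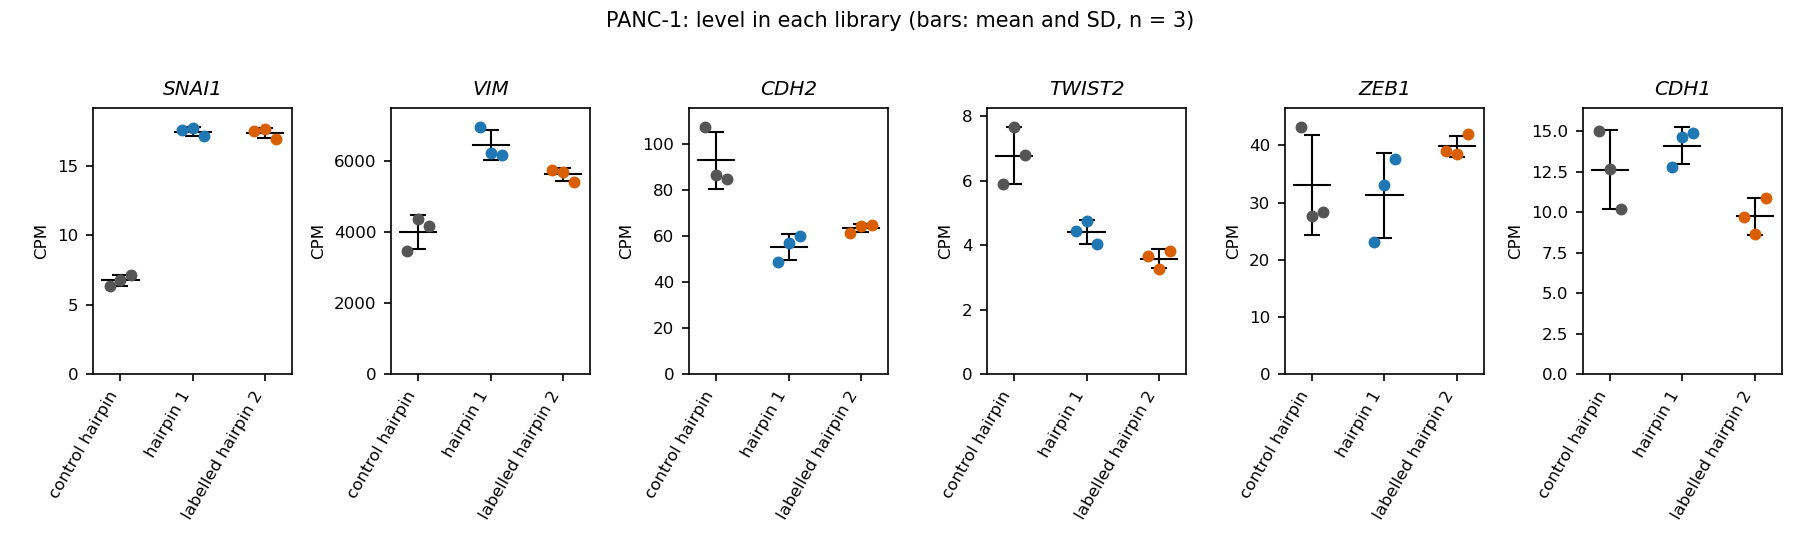
CPM of 6 members in the 9 PANC-1 libraries on linear axes from 0. Points are libraries, black lines the mean and SD of 3, grey the control, blue hairpin 1 and orange the label hairpin 2. SNAI1 sits at 16.9 to 17.7 CPM in all 6 hairpin libraries against 6.31 to 7.15 in the control, while ZEB1 and CDH1 overlap between sets.

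In MDA-MB-468, the members stayed close to the control and VIM alone passed, with hairpin 2. With hairpin 1, 0 of 5 tested members passed by edgeR, where 2.27% of 14641 genes did (1.24% higher, 1.03% lower), with 1 at an unadjusted p under 0.05 and 1 by DESeq2, which was VIM in both. With hairpin 2, 1 of 5 passed, against 3.49% of genes, 1.69% higher and 1.8% lower. VIM had 6.76, 7.47 and 8.40 CPM in the control, 9.99, 9.11 and 9.99 with hairpin 1 and 11.3, 10.6 and 11.2 with hairpin 2. The 3 sets did not overlap. The log2 fold changes were 0.36 (SE 0.104, edgeR adjusted p = 0.136, DESeq2 adjusted p = 0.0444) and 0.55 (SE 0.104, edgeR adjusted p = 0.0242). The hairpin 2 call was lost in 7 of 9 fits that each left out 1 library, with values of 0.47 to 0.63 and adjusted p of 0.0375 to 0.120 over the 9. It was kept without control replicate 1 and without control replicate 3 only.

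TWIST2 had 18.1, 11.4 and 14.02 CPM in the MDA-MB-468 control, 16.0, 14.3 and 16.3 with hairpin 1 and 22.4, 16.5 and 20.8 with hairpin 2. The control overlapped with each hairpin set, and the hairpin 2 libraries lay above those of hairpin 1. Its hairpin 2 value was 0.45 (SE 0.174, edgeR adjusted p = 0.242). CDH1 had 120, 165 and 140 CPM in the control and 114, 131 and 97.8 with hairpin 2 (-0.31, SE 0.134, adjusted p = 0.3). SNAI1 had 0.812, 0.695 and 0.702 CPM in the control and 0.612, 0.441 and 0.549 with hairpin 1, from 15 to 27 counts, where the sets did not overlap. Its value was -0.46 (SE 0.268, adjusted p = 0.57). FN1 ran from 11.3 to 23.0 CPM in the control and from 14.9 to 27.7 with hairpin 2, and neither hairpin moved it by more than its error allows to be seen (interval with hairpin 2 of -0.26 to 0.83). Between the hairpins 0 of 5 passed, with 0 at an unadjusted p under 0.05 and 0 by DESeq2, against 0.437% of genes, 0.191% higher and 0.246% lower. ZEB1, with 7 counts summed over the 3 control libraries, 23 with hairpin 1 and 25 with hairpin 2, was too low to be tested, as were SNAI2, ZEB2, TWIST1 and CDH2.

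In WiDr with hairpins, no member passed against the control, although a large share of all genes did. With hairpin 1, 0 of 5 tested members passed by edgeR, with 0 at an unadjusted p under 0.05 and 0 by DESeq2, where 48% of 14317 genes passed, 24.1% higher and 23.9% lower. With hairpin 2, 0 of 5 passed, with 2 at an unadjusted p under 0.05 (SNAI1 and FN1) and 0 by DESeq2, against 44.7%, 22.2% higher and 22.5% lower. SNAI1 had 2.42, 2.45 and 2.19 CPM in the control, 2.20, 2.02 and 1.66 with hairpin 1 and 1.76, 2.05 and 1.24 with hairpin 2. All hairpin 2 libraries lay under the control, and its value was -0.46 (SE 0.200, edgeR adjusted p = 0.0735). It passed without hairpin 1 replicate 1 (adjusted p = 0.0498) and without hairpin 2 replicate 2 (-0.64, adjusted p = 0.0345), and in a fit of all 36 libraries (-0.45, adjusted p = 0.0421). CDH1 had 462, 441 and 457 CPM in the control and 398, 430 and 441 with hairpin 1 (-0.10, SE 0.0509, adjusted p = 0.118), and its hairpin 2 value lay within 1 SE of 0.

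The WiDr hairpins differed from each other in CDH1 and FN1. Hairpin 2 was higher than hairpin 1 for 2 of 5 members and lower for none, where 42.4% of all genes passed, 20.6% higher and 21.8% lower. FN1 had 2.24, 2.06 and 2.81 CPM with hairpin 1 and 4.05, 2.91 and 4.47 with hairpin 2, which do not overlap (0.66, SE 0.193, edgeR adjusted p = 0.0121). Against the control, at 2.65, 3.23 and 2.22 CPM, the hairpin 2 value was 0.48 (SE 0.191, adjusted p = 0.0525). It passed without the filter on low counts (adjusted p = 0.037) and in 4 of 9 fits that each left out 1 library: control replicate 2, hairpin 1 replicate 1 or 3, or hairpin 2 replicate 2 (0.47 to 0.65, adjusted p of 0.0157 to 0.0392). CDH1 had 473, 456 and 473 CPM with hairpin 2, above all hairpin 1 libraries (0.14, SE 0.0509, adjusted p = 0.0322). The FN1 difference between hairpins was lost without hairpin 1 replicate 2 (0.56, adjusted p = 0.0537) or hairpin 2 replicate 3 (0.53, adjusted p = 0.067), and the CDH1 difference was lost in 5 of 9 such fits (0.10 to 0.17): without control replicate 3, hairpin 1 replicate 1 or 2 or hairpin 2 replicate 1 or 3. Neither passed in the fit of all 36 libraries (FN1 adjusted p = 0.0825, CDH1 adjusted p = 0.316), nor CDH1 with the replicate number as a block (0.14, adjusted p = 0.063). Beside these, ribosomal RNA genes took 5.38% to 10.2% of counts with hairpin 2 and 1.27% to 2.56% with hairpin 1, and with those genes left out the values were 0.66 for FN1 and 0.145 for CDH1, both past the threshold.

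In WiDr with guides, SNAI1 fell with both guides, while CDH1 rose with guide 1 and fell with guide 2. With guide 1, 1 member was higher and 1 lower of 5 tested, where 41.6% of 14649 genes passed, 21.4% higher and 20.3% lower. With guide 2, 0 were higher and 3 lower of 5, against 25.5%, 14.1% higher and 11.3% lower. For both guides in the same direction it was 1 of 5 members, against 14.7% of genes, 8.48% higher and 6.26% lower.

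SNAI1 had 4.46, 4.33 and 3.62 CPM with the non-targeting guide, 3.20, 3.02 and 2.79 with guide 1 and 1.80, 2.51 and 2.30 with guide 2. The 3 sets did not overlap. It fell by -0.47 (SE 0.148, edgeR adjusted p = 0.0177) and -0.91 (SE 0.153, adjusted p = 0.000431). The guide 1 call was lost without control replicate 1 (-0.41, adjusted p = 0.079), control replicate 2 (-0.43, adjusted p = 0.0634) or guide 1 replicate 3 (-0.42, adjusted p = 0.0662). The SNAI1 level of the guide control itself was higher than that of the WiDr hairpin control by 0.76 (SE 0.138, adjusted p = 0.00194). Between these 2 controls, 1 of 8 members was higher and 0 lower, where 26.4% of all genes passed, 13.6% higher and 12.8% lower.

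CDH1 had 426, 430 and 429 CPM with the non-targeting guide, a spread (SD) of 2.40. It had 513, 485 and 496 with guide 1 and 406, 390 and 375 with guide 2, on either side of the control without overlap. The log2 fold changes were 0.22 (SE 0.0467, edgeR adjusted p = 0.00129) and -0.14 (SE 0.0468, adjusted p = 0.0431). The guide 2 call was lost in 5 of 9 fits that each left out 1 library, with values of -0.16 to -0.12 and adjusted p up to 0.130. These were without any of the 3 control libraries, guide 1 replicate 3 or guide 2 replicate 2. FN1 had 4.34, 4.01 and 4.28 CPM in the control, 4.32, 3.82 and 3.004 with guide 1 and 2.54, 3.17 and 2.51 with guide 2. Guide 2 lay under the control in all 3 libraries (-0.62, SE 0.151, adjusted p = 0.00659), and guide 1 overlapped with it (-0.19, SE 0.146, adjusted p = 0.332). In the fit of all 36 libraries, CDH1 passed with neither guide (adjusted p = 0.187 and 0.449) and FN1 did not pass with guide 2 (-0.64, adjusted p = 0.163).

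Guide 2 was lower than guide 1 for SNAI1, ZEB1, CDH1 and FN1, 4 of 5 members with none higher, where 34.4% of all genes passed, 17.4% higher and 17.1% lower. For CDH1 the difference was -0.35 (SE 0.0467, edgeR adjusted p = 1.86e-05). For ZEB1, at 1.497, 1.30 and 0.901 CPM with guide 1 and 0.649, 0.906 and 0.321 with guide 2, it was -0.97 (SE 0.326, adjusted p = 0.0282), with overlapping sets and 11 to 57 counts. SNAI1 (-0.44, SE 0.156, adjusted p = 0.0358) and FN1 (-0.44, SE 0.152, adjusted p = 0.0346) had values of the same size, the guide sets of FN1 overlapping and those of SNAI1 not. With DESeq2 the SNAI1 difference had an adjusted p of 0.0531, and in the fit of all 36 libraries those of ZEB1 and FN1 had 0.102 and 0.311. Leaving out 1 library at a time ended the SNAI1 call in 3 of 9 fits, those of ZEB1 and FN1 in 4 of 9 each and that of CDH1 in none. The fits that ended them left out guide 1 replicate 1 or 2 or guide 2 replicate 1, and for ZEB1 and FN1 also guide 2 replicate 3, with adjusted p up to 0.149.

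Guide groups follow the library titles. For 4 of the 6 guide libraries, the genotype field of the labels names the other guide. That field puts 5 libraries with guide 1 and 1 with guide 2, so it leaves no replicate for guide 2 and nothing is read from that arm. With the 5 libraries as guide 1, SNAI1 passed with -0.69 (edgeR adjusted p = 0.0418) and CDH1 had 0.018 (adjusted p = 0.929).

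**Figure D3:**
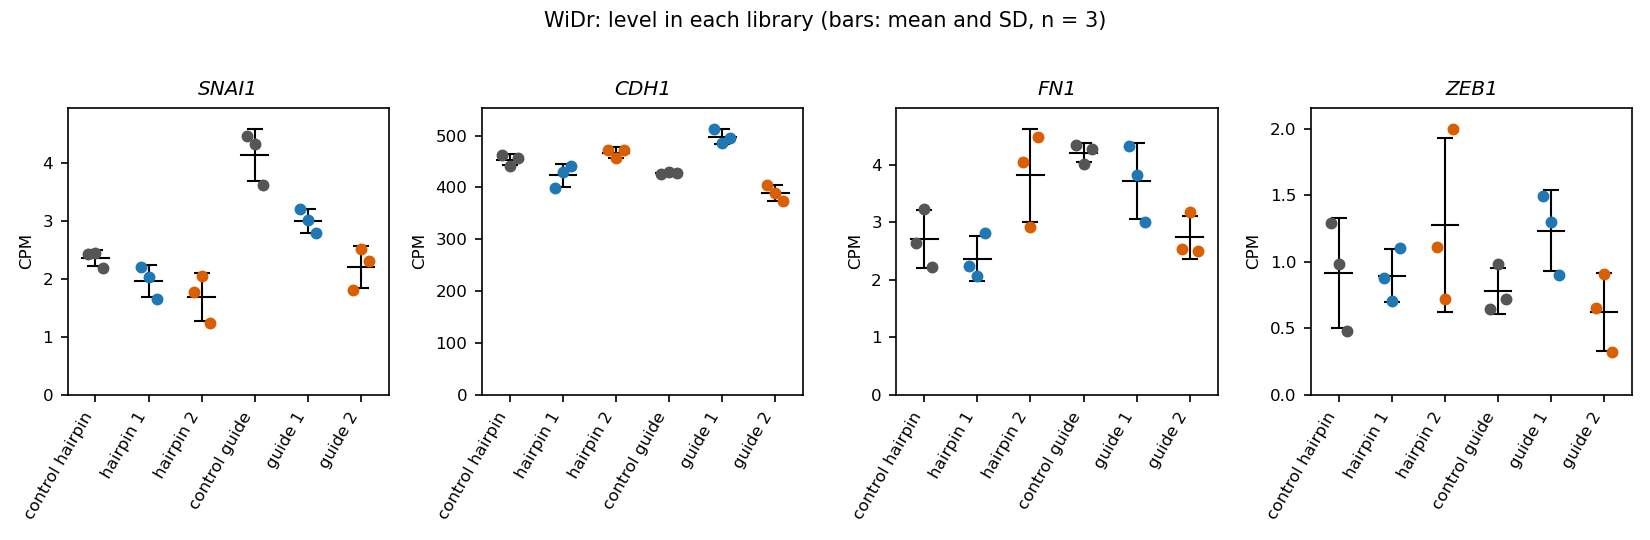
CPM of 4 members in the 18 WiDr libraries on linear axes from 0, with hairpins and guides scaled in separate experiments. Points are libraries, black lines the mean and SD of 3. SNAI1 lies at 3.62 to 4.46 CPM with the control guide, above every other WiDr library, and CDH1 parts the 2 guides, at 485 to 513 and 375 to 406 CPM.

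The effects of the constructs were compared between pairs of experiments, 18 libraries at a time, by an interaction term. An effect is the average over both constructs less the control of the same experiment. SNAI1 differed between PANC-1 and both other lines: the PANC-1 effect was higher than that in MDA-MB-468 by 1.57 (SE 0.198, edgeR adjusted p = 3.24e-05), and the WiDr effect was lower than that in PANC-1 by -1.78 (SE 0.163, adjusted p = 3.62e-07). TWIST2 differed between PANC-1 and MDA-MB-468 by -1.07 (SE 0.196, adjusted p = 0.000937). These 2 were all of 8 members fitted that passed between PANC-1 and MDA-MB-468, 1 higher and 1 lower, where 23.9% of genes passed, 11.7% higher and 12.1% lower. The fit gave no usable value for CDH2 and ZEB2, which were at 0 in the MDA-MB-468 control. For VIM, which was higher in all hairpin libraries of both lines, the difference was 0.12 (SE 0.129), an interval of -0.14 to 0.38.

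Between WiDr and PANC-1, SNAI1 was the 1 of 8 members that passed, and it was lower (37.2% of genes passed, 16.2% higher and 20.9% lower). Between WiDr and MDA-MB-468, 0 of 7 passed by edgeR, with 0 at an unadjusted p under 0.05 and 0 by DESeq2, against 18.2%, 8.96% higher and 9.27% lower. ZEB2 and TWIST2, at 0 in the control of 1 of these lines, had no usable value here, and neither had TWIST2 between WiDr and PANC-1. In that pair, CDH2 had 1 count in the WiDr control and 0 with each hairpin, and VIM 0 to 7 per WiDr library. These counts are too low to compare their PANC-1 changes with WiDr. Within WiDr, the hairpin and guide experiments differed for FN1, 1 higher of 5 members (41.6% of genes passed, 19.6% higher and 22% lower). The hairpin effect lay 0.55 above the guide effect (SE 0.219, edgeR adjusted p = 0.0461), and this call was lost in 12 of 18 fits that each left out 1 library. SNAI1, with -0.47 and -0.91 for the guides, differed from the hairpin effect by 0.33 (SE 0.209, adjusted p = 0.22), an interval of -0.091 to 0.74. CDH1 had a difference of -0.065 between hairpin and guide effects (interval -0.18 to 0.047), which averages guide values of opposite sign, 0.22 and -0.14.

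**Figure D4:**
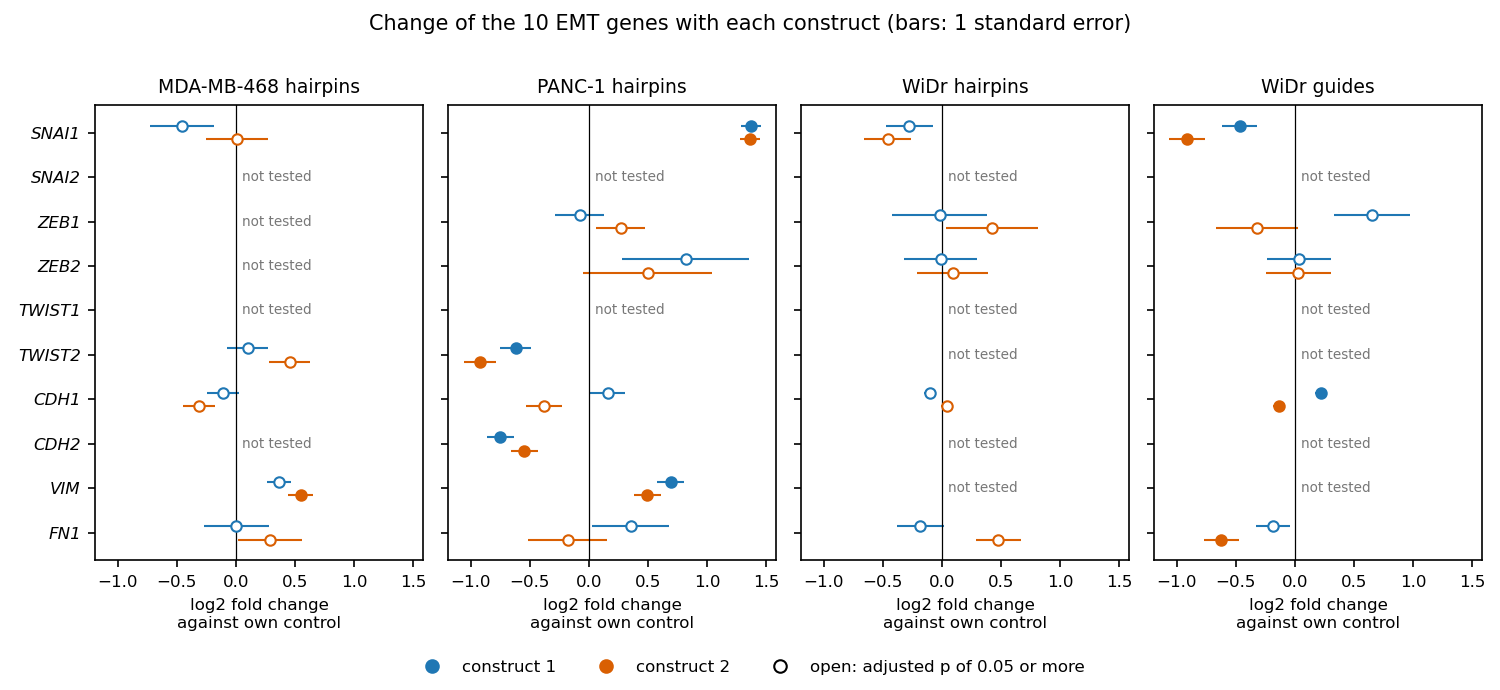
Log2 fold change of each member against its own control, with 1 standard error, for the 2 constructs of each experiment (blue construct 1, orange construct 2, the latter being the label hairpin 2 in PANC-1). Filled symbols have an adjusted p under 0.05 (edgeR), and members with too few counts are marked as not tested. SNAI1 lies at 1.37 and 1.36 in PANC-1 and at -0.47 and -0.91 with the WiDr guides.

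The genes whose level was most like that of a member were found by Pearson's r of log2 CPM over the 36 libraries, each centred on its experiment's mean, among 13953 genes with a mean of at least 1 CPM. Libraries of an experiment share their control and their scaling, so r is a description. SNAI1 was most like SYT17 (r = 0.90), a synaptotagmin, and ENO2 (0.89) and PFKFB4 (0.89), both of glycolysis. CDH2 was most like SFMBT2 (0.97), HDX and GPC6, and TWIST2 had MTERF4 (0.85) and EGFLAM (0.85) among its 3. CDH2 had 0 counts in 26 of 36 libraries, so its r describes PANC-1 almost alone. TWIST2 had 0 counts in 17 of 18 WiDr libraries, so its r describes MDA-MB-468 and PANC-1. VIM was most like TGFBI (0.73), an extracellular matrix gene, BACE2 and CLEC2B. With 0 to 11 VIM counts in the 18 WiDr libraries, its r rests on low counts there. CDH1 had LPIN1 (0.72), the integrin gene ITGAV (0.70) and GRHL2 (0.70), ZEB1 had TRAF3IP1 (0.71), SERTAD2 and MTF1, and FN1 had RDH10-AS1 (0.76), FBXO10 and CRAMP1L. GRHL2 was hardly detected in the PANC-1 control, so its r with CDH1 says little there. The same holds for ZEB1 in MDA-MB-468, with 0 to 12 counts.

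Other genes of the pathway were read from 11 lists with 114 entries in all. With both hairpins, 23 genes rose and 18 fell in PANC-1 of 100 tested, against 23.8% of all genes in either direction. In MDA-MB-468 the counts were 0 and 2 of 95 (1.31% of genes, 0.744% higher and 0.567% lower), in WiDr with hairpins 21 and 10 of 88 (25.2%, 12.3% higher and 12.9% lower) and in WiDr with guides 14 and 9 of 91 (14.7%). The 2 in MDA-MB-468 were TAGLN, an actin-binding gene, which fell with both hairpins from 28.99 ± 6.41 to 15.2 ± 1.22 and 15.1 ± 1.84 CPM, and the neuronal intermediate filament gene INA.

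In PANC-1, 12.7% of all genes rose and 11.1% fell in both hairpin sets. Mesenchymal and matrix genes rose beside VIM: 9 rose and 1 fell of 16 tested in both sets, of 18 in the list. Their median log2 fold change was 1.22 with hairpin 1 and 0.83 for the label hairpin 2, against -0.015 and -0.00474 over all genes. TGFBI rose from 250 ± 3.06 to 574 ± 18.1 and 486 ± 7.82 CPM, and the matrix glycoprotein gene SPARC from 33.7 ± 1.84 to 92.1 ± 4.85 and 60.1 ± 1.45 CPM. CALD1, which encodes caldesmon, rose by 1.53 and 1.03 from 4.31 CPM, and the fibronectin receptor gene ITGA5 by 1.07 and 1.17. Of the list, COL1A1 and COL1A2 are also among the 6 fibroblast markers, whose summed level is given above. The surface antigen gene THY1 fell (-0.42 and -1.12).

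Genes of epithelial junctions did not go 1 way in PANC-1. Of 16 tested, 5 rose and 4 fell in both sets, against 12.7% and 11.1% of all genes. DSP, which encodes desmoplakin of desmosomes, rose from 5.497 ± 1.84 to 58.1 ± 16.8 and 57.3 ± 4.64 CPM (3.40 and 3.37, SE 0.281). CDH3, which encodes P-cadherin, rose from 4.14 ± 0.167 to 17.1 ± 1.04 and 13.0 ± 0.889 CPM, so that it rose where CDH2 fell, and the claudin genes CLDN7 (0.80 and 0.68) and CLDN4 (0.77 and 0.58) rose too. KRT8, a simple epithelial keratin, fell from 5231 ± 815 to 3437 ± 354 and 2830 ± 112 CPM, the tight junction gene OCLN by -0.76 and -0.77 and the polarity gene LLGL2 by -0.83 and -0.90. Of the epithelial identity factors, 0 of 8 passed in both sets. In the list of E proteins and ID inhibitors, which set the dimers of TWIST, ID2, ID3 and ID4 fell and none rose of 7. ID2 fell from 16.2 ± 4.02 to 3.12 ± 0.104 and 4.66 ± 0.513 CPM, and ID3 by -0.68 and -0.63. Of 9 genes of TGF-beta input tested, 2 rose and 3 fell in both sets. Among those that fell was the ligand gene TGFB2 (-1.43 and -1.74). AJUBA, a corepressor partner of SNAIL, fell by -0.95 and -1.40.

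In WiDr with guides, 5 of 10 epithelial identity factors rose with both guides and none fell: ELF3, ESRP1, GRHL3, KLF5 and OVOL1. Over all genes, 8.48% rose and 6.26% fell with both guides. ELF3, an ETS factor of epithelia, rose from 293 ± 2.64 to 491 ± 7.64 and 345 ± 7.46 CPM, and OVOL1, a zinc finger factor that opposes EMT, from 23.5 ± 0.786 to 37.3 ± 0.828 and 30.2 ± 0.914 CPM. Of 18 junction genes 5 rose, among them CLDN7 (0.50 and 0.32) and OCLN (0.50 and 0.33), and CDH3 fell (-1.56 and -1.32). The E-cadherin adhesion complex did not go with these rises. Of its 8 genes tested none rose, and CTNNB1 (-0.26 and -0.14) and VCL (-0.36 and -0.29) fell with both guides. Of 9 mesenchymal and matrix genes tested, none rose and CALD1 (-0.85 and -1.22), TGFBI (-0.21 and -0.52) and COL1A1 fell. The median of the identity factors was 0.44 with guide 1 and 0.21 with guide 2, against -0.00441 and 0.021 over all genes.

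In WiDr with hairpins, the identity factors were mixed, with ESRP1 (0.43 and 0.44), KLF5 and OVOL2 (0.57 and 0.31) up and GRHL1 (-0.48 and -0.31) and GRHL3 (-0.49 and -0.69) down of 10. The hairpin effect on GRHL3 lay below the guide effect by -1.55 (SE 0.185, edgeR adjusted p = 5.22e-07). With both hairpins, 12.3% of all genes rose and 12.9% fell. Of 12 corepressor genes of SNAIL and ZEB, 5 rose with both hairpins and none fell. Among the 5 were EZH2 (0.77 and 0.71), a Polycomb methyltransferase, and HDAC2 (0.49 and 0.37), a histone deacetylase. Junction genes were mixed, with 4 higher and 3 lower of 18 with both hairpins. DSP rose by 0.92 and 0.79, while KRT19 (-0.42 and -0.31), CLDN4 (-0.28 and -0.40) and OCLN (-0.18 and -0.29) fell. The fibronectin receptor gene ITGB1 fell from 2008 ± 75.0 to 1198 ± 34.0 and 1464 ± 17.5 CPM, and ITGB6 fell by -0.51 and -0.18. No gene of the mesenchymal list passed with both hairpins of 8 tested by edgeR.

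Some of these effects differed between experiments when the difference itself was tested. The effect on DSP in PANC-1 lay above that in MDA-MB-468 by 3.30 (SE 0.393, edgeR adjusted p = 2e-05), and that on ID2 below by -2.46 (SE 0.205, adjusted p = 4.86e-07). Within WiDr, the hairpin effect on CALD1 lay above the guide effect by 0.98 (SE 0.0948, adjusted p = 2.24e-08), and on OCLN below it by -0.65 (SE 0.0788, adjusted p = 6.14e-07).

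**Figure D5:**
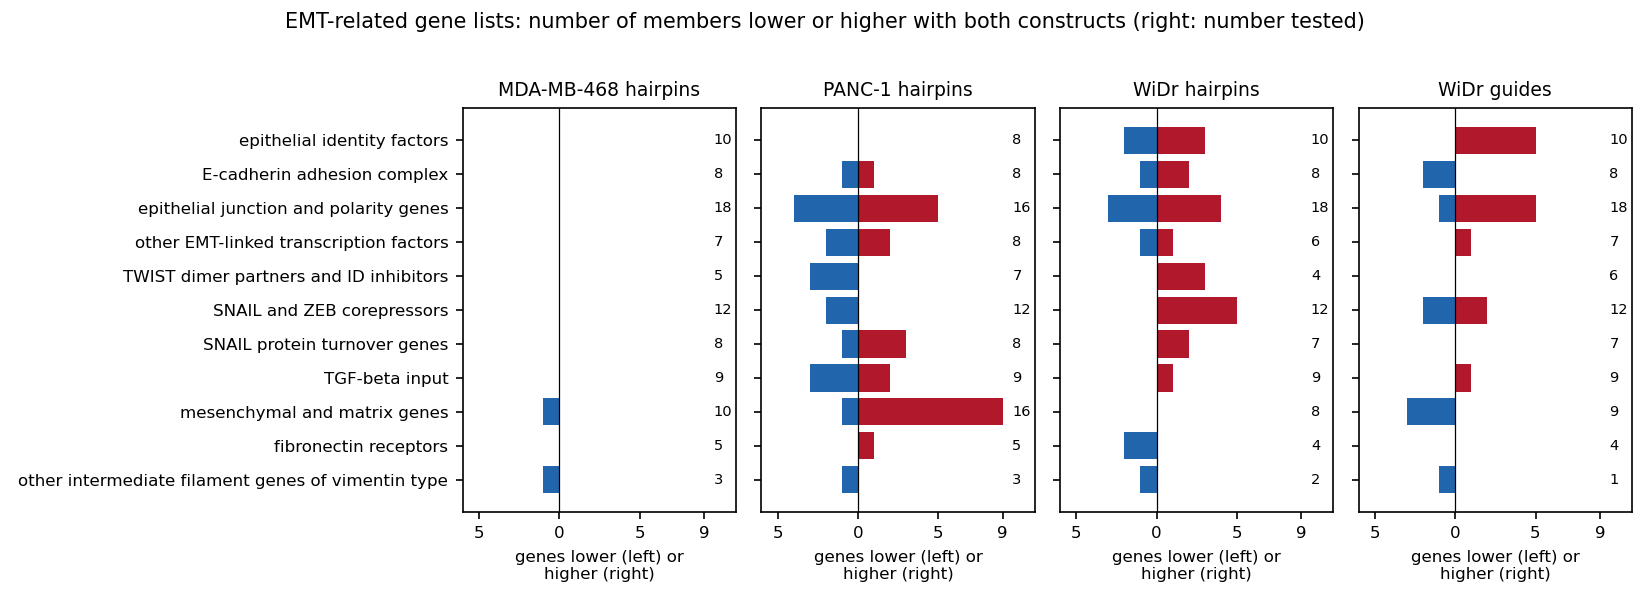
Number of genes of 11 EMT-related lists that passed with both constructs of an experiment (edgeR adjusted p under 0.05), lower in blue to the left and higher in red to the right, with the number tested at the right edge. The longest bar is that of mesenchymal and matrix genes in PANC-1, with 9 higher of 16 tested, and MDA-MB-468 has 2 genes in all.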

How the data were processed

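Poly-A RNA was sequenced on an Illumina HiSeq instrument. Per the submitters' processing notes, the authors used Bowtie2 2.1.0, RSEM 1.2.15 and hg38. Their deposited table holds expected counts by gene symbol. No source used here gives the annotation or strand setting. Expected counts were rounded to whole numbers. Each experiment of 9 libraries had a separate edgeR 4.0.16 fit (R 4.3.3), with genes filtered by filterByExpr, TMM factors and the robust quasi-likelihood F test. All p-values were adjusted over all genes tested by Benjamini-Hochberg. The standard error is the log2 fold change over the square root of F. Members below the filter were not tested.

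The members, gene lists and comparisons were chosen with earlier results of these data known. Besides the members, the text names, per experiment and direction, up to 10 listed genes with a mean of at least 5 CPM that passed with both constructs, ranked by the smaller change, and 3 genes most like each member. Genes named outside that rule (INA, THY1, ID4, GRHL2, COL1A1 and, in some experiments, ESRP1, GRHL3 and KLF5) were chosen after their values were seen. Alternatives were DESeq2 1.42.0, DESeq2's size factors, no filter on low counts, all 36 libraries in 1 fit, no ribosomal RNA genes, the replicate number as a block, guides by the genotype field, and leaving out each library. The tests were checked on simulated counts. Between replicates of a group chi-square per degree of freedom was 3.39 to 177. Intervals are 2 standard errors either side, and floors of 3 counts cover counting error only. The gene addressed by the constructs and some genes that the naming rule selects are not reported here.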

Additional observations from a re-analysis of the deposited data

Results flagged for a closer look

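Effects on 3 members differed between experiments when the difference was tested with edgeR's quasi-likelihood test. The SNAI1 effect of the PANC-1 hairpins exceeded that of the MDA-MB-468 hairpins by 1.57 (SE 0.198, adjusted p = 3.24e-05), with all 6 PANC-1 hairpin libraries above their control. The WiDr hairpin effect on SNAI1 lay under the PANC-1 effect by -1.78 (SE 0.163, adjusted p = 3.62e-07). Leaving out any library kept both within 1.504 to 1.70 and -1.87 to -1.69. The TWIST2 effect in PANC-1 lay under that in MDA-MB-468 by -1.07 (SE 0.196, adjusted p = 0.000937), and TWIST2 was lower than the control in all 6 PANC-1 hairpin libraries. The FN1 effect of the WiDr hairpins lay above that of the WiDr guides by 0.55 (SE 0.219, adjusted p = 0.0461), and this call was lost in 12 of 18 fits that each left out 1 library (0.43 to 0.70, adjusted p of 0.016 to 0.152).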

How the results depend on the processing

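With replicate numbers as a block, 1 member differed between the WiDr hairpins and 0 between hairpin and guide effects in WiDr (FN1 0.54, edgeR adjusted p = 0.0616), and no other member call changed. A pair of libraries from different groups counted as deviating together where Pearson's r of their departures from group means was over 0.1, a low bar. Same-numbered libraries did so in 5 of 9 pairs in MDA-MB-468, 2 in PANC-1, 0 in WiDr with hairpins and 5 with guides. Among libraries of different number, 7 of 18 pairs did so in MDA-MB-468, 8 in PANC-1, 5 in WiDr with hairpins and 5 with guides. In MDA-MB-468, r ran from -0.446 to 0.915 for pairs of the same number and from -0.905 to 0.882 for the others. Whether a shared number marks a shared batch was not tested. DESeq2 called 1 member for MDA-MB-468 hairpin 1, and without the filter 1 passed for WiDr hairpin 2. All 36 libraries in 1 fit gave 5 for the label PANC-1 hairpin 2, 1 between the PANC-1 hairpins, 1 for WiDr hairpin 2, 0 between WiDr hairpins, 1 for guide 1, 1 for guide 2 and 2 between guides. The genotype field puts the libraries titled guide 2 with guide 1 and leaves guide 1 replicate 3 alone as guide 2. By that field, CDH1 had 0.21 for guide 2. Between guides, SNAI1 had 0.12 and CDH1 0.19. These values lie on the other side of 0, where the groups hold other libraries than by the titles. With 1 library assumed to vary like the others, nothing is read from them. Which label is right was not tested. Without each library in turn, members passing numbered 0 to 1 for MDA-MB-468 hairpin 2, 3 to 5 for the label PANC-1 hairpin 2, 0 to 2 for WiDr hairpin 2 and between WiDr hairpins, 1 to 2 for guide 1, 2 to 3 for guide 2, 1 to 4 between guides, 1 to 2 between the WiDr controls, 2 to 3 between PANC-1 and MDA-MB-468 effects and 0 to 1 between WiDr hairpin and guide effects. FN1 with PANC-1 hairpin 1 ran from -0.014 (without hairpin 1 replicate 2) to 0.61, and ZEB1 with WiDr hairpin 2 from -0.036 (without hairpin 2 replicate 3) to 0.75. Depth limits SNAI2, TWIST1 and, outside PANC-1, CDH2 and ZEB1. It also limits ZEB2 in MDA-MB-468 and TWIST2 and VIM in WiDr. A library with 0 counts allows up to 3.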
